A study of Tribolium castaneum with 9 samples.

Results

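The 93 genes described here are the cell cycle and DNA replication genes among the 5467 genes of the deposited expression table of the red flour beetle Tribolium castaneum, a pest of stored grain. They were chosen by the first title of their deposited description, which had to contain cyclin, DNA polymerase, DNA replication, origin recognition, kinetochore, mitotic, cell division, centromere, centrosom, kinesin, condensin, cohesin, aurora or polo. RNA was sequenced from 9 libraries of adult beetles of a susceptible phenotype, in 3 groups of 3: whole body of control beetles, Malpighian tubules of beetles treated with COS, and fat body of beetles treated with COS. COS is read here as carbonyl sulfide, a fumigant gas. Neither a dose nor a time is given, and it is not stated whether a library pooled animals or whether replicates were separate animals. The p-values then cover the spread among these libraries alone, and that spread may be technical. The controls are whole bodies and both treated groups are single organs, so against the control the effects of organ and treatment cannot be told apart. Fat body over tubules compares groups that are both labelled as COS-treated, though the fat body titles carry a number whose meaning is not given.

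Cells copy their genome once per cycle. The origin recognition complex marks replication origins, Cdc6 and Cdt1 load the Mcm helicase there, the GINS complex helps to switch it on, and DNA polymerases copy the strands. Cyclins bound to cyclin-dependent kinases (CDKs) drive the phases, condensin compacts the chromosomes, and kinetochores, centrosomes, kinesins and the polo and aurora kinases build the spindle and part the chromosomes. In adult Drosophila most cell divisions take place in the gonads and among gut stem cells, and oocytes also store messenger RNA of cell cycle genes for the embryo. Malpighian tubules are the excretory organ of insects, and the fat body serves storage and intermediary metabolism.

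Library totals ran from 13435869 to 19866421 reads. In the authors' deposited table each gene's log2 fold change has a size of 1 or more in at least 1 of the 3 comparisons, so the genes were chosen on these samples, and counts of changed genes are not independent evidence. The text rule also takes in proteins of other functions, such as kinesins of vesicle transport and reverse transcriptases, which are described under their own role. Summed Malpighian tubule markers (23 genes) stood at 6068 to 8115 CPM (counts scaled to a common library total) in the tubule libraries against 2256 to 2558 in controls, and summed fat body markers (8 genes) at 15450 to 24670 in fat body against 3956 to 5601. Single genes of these lists went both ways: 11 of the tubule markers rose and 6 fell in tubules over control, and 5 of the fat body markers rose and 3 fell in fat body over control. Muscle markers (22 genes) were at 26250 to 33180 in fat body, 12190 to 12290 in controls and 1253 to 1733 in tubules, and gut digestive markers (43 genes) at 6153 to 9794 in tubules and 4168 to 5162 in controls. Of these, 13 muscle markers rose and 5 fell in fat body over control (59.1% and 22.7%, against 32.2% and 36.9% of all genes tested). In tubules over control 10 gut markers rose and 15 fell (23.3% and 34.9%, against 32.6% and 30.2% of all genes tested). In bulk RNA, fewer cells of a type and less RNA per cell cannot be told apart.

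Most of the set was higher in the tubule libraries than in control whole bodies and lower in the fat body libraries. All 93 members passed the filter on low counts. In tubules over control, 55 of 93 members rose and 9 fell at an adjusted p under 0.05, while 32.6% of the 5358 genes tested rose and 30.2% fell. In fat body over control, 12 rose and 64 fell, against 32.2% and 36.9% of all genes tested. In fat body over tubules, 10 were higher and 65 lower, against 38.8% and 41%. In either direction these make 62.8%, 69.1% and 79.8% of all genes tested. The shares of all genes that rose and that fell are also the background for the counts by role and by marker list. The members' median log2 fold changes were 1.10, -1.34 and -2.34 in that order, where 1 log2 unit is a ratio of 2, and the medians of all genes tested were -0.12, -0.22 and -0.24. The 2 comparisons with the control share its 3 libraries.

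**Figure D1:**
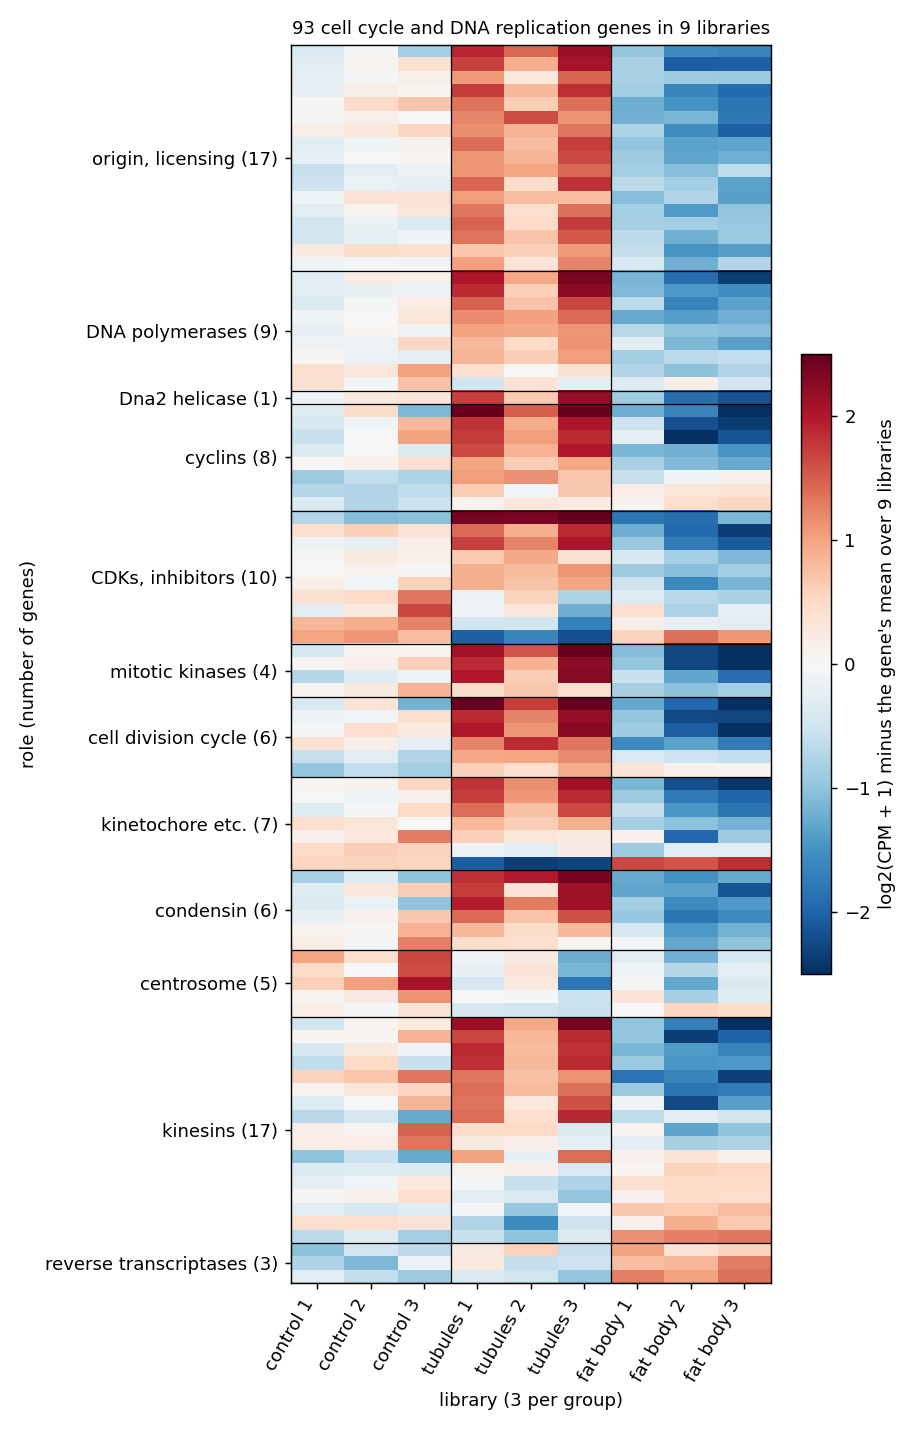
Heat map of the 93 members (rows, ordered by role) in the 9 libraries (columns), coloured by log2(CPM + 1) minus the gene's mean over all libraries. Most rows are high in the 3 tubule libraries and low in the 3 fat body libraries, and 4 of the 5 centrosome rows are highest in control replicate 3.

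Counted in both directions together, groups without overlap were about as common among the members as among all genes tested, at 74.2% against 72.4% in tubules over control, 83.9% against 78.0% in fat body over control and 84.9% against 80.3% in fat body over tubules. By direction, in tubules over control, 59 members had all tubule values above all controls and 10 had all below, against 34.3% and 38.1% of all genes tested. In fat body over control, 13 were wholly above and 65 wholly below (36.5% and 41.5% of all genes), and in fat body over tubules 11 and 68 (39.7% and 40.6%). Single libraries gave the same direction in the median: against the control mean, the median member stood at 1.10, 0.6 and 1.32 log2 units in tubule replicates 1, 2 and 3, and at -0.80, -1.32 and -1.30 in fat body replicates 1, 2 and 3.

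The rise in tubules was uneven over the 3 tubule libraries. Replicate 2 was the lowest tubule library in 65 of 93 members (69.9%, against 36.1% of all genes tested), and replicates 1 and 3 were both at least 1.5 times replicate 2 in 41 members (44.1%, against 12.1%). The median member was 1.40 times as high in replicate 1 as in replicate 2 and 1.56 times as high in replicate 3, while the median gene of the table was at 0.966 and 0.970. Of the 3 ovary and germline markers, 2 moved with this pattern. Vitellogenin receptor (yl, LOC657346), through which oocytes take up yolk, was at 604, 202 and 857 CPM in tubule replicates 1, 2 and 3, at 57.2, 105 and 34.2 in controls, and at 51.6, 19.7 and 7.02 in fat body. Bicaudal C (BicC, LOC663844), an RNA-binding protein of oocytes in Drosophila, stood at 270.2, 85.1 and 378 CPM in tubules, 17.3, 39.8 and 13.3 in controls, and 21.8, 8.58 and 1.42 in fat body. The other ovary and germline marker, ovo (LOC663753), went the other way. It stood at 2.64, 3.32 and 2.81 CPM in tubule replicates 1, 2 and 3, with replicate 2 the highest of them. Its values were 8.27 to 9.59 in controls and 32.6 to 43 in fat body. The 3 markers summed to 290.6 to 1238 CPM in tubules, 55.8 to 153.8 in controls and 51.4 to 106.0 in fat body, and none was at 0 in any library. In 57 of 93 members (61.3%, against 26.4% of all genes) the tubule libraries had the same order as in vitellogenin receptor, with replicate 2 lowest and replicate 3 highest. The members had the order of that gene in 15 cases among the controls (16.1%, against 20.1% of all genes) and in 36 among the fat body libraries (38.7%, against 17.6%). The part of the ovary genes in the rise was not tested. With tubule replicate 2 as the lone tubule library, an alternative added after the data were seen in which that library is assumed to vary like the other groups, 25 of the 55 members that rose kept their call and the median fell to 0.67. Among the members named by the rule given below under processing, Orc1, PolA2, Dna2, cyclin-B3, Cks30A, polo, bora and fzy lost their rise there. So did the second Cdc20 gene, cell division cycle-associated protein 3, Ndc80, the condensin gene LOC655301 and Klp31E. The log2 fold changes of all these genes ran from 0.16 to 2.17. Members named after their values were seen were not followed singly in that fit, and some of them may also have lost their rise. In fat body over tubules, 62 of the 65 lower members kept their call in that fit.

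**Figure D2:**
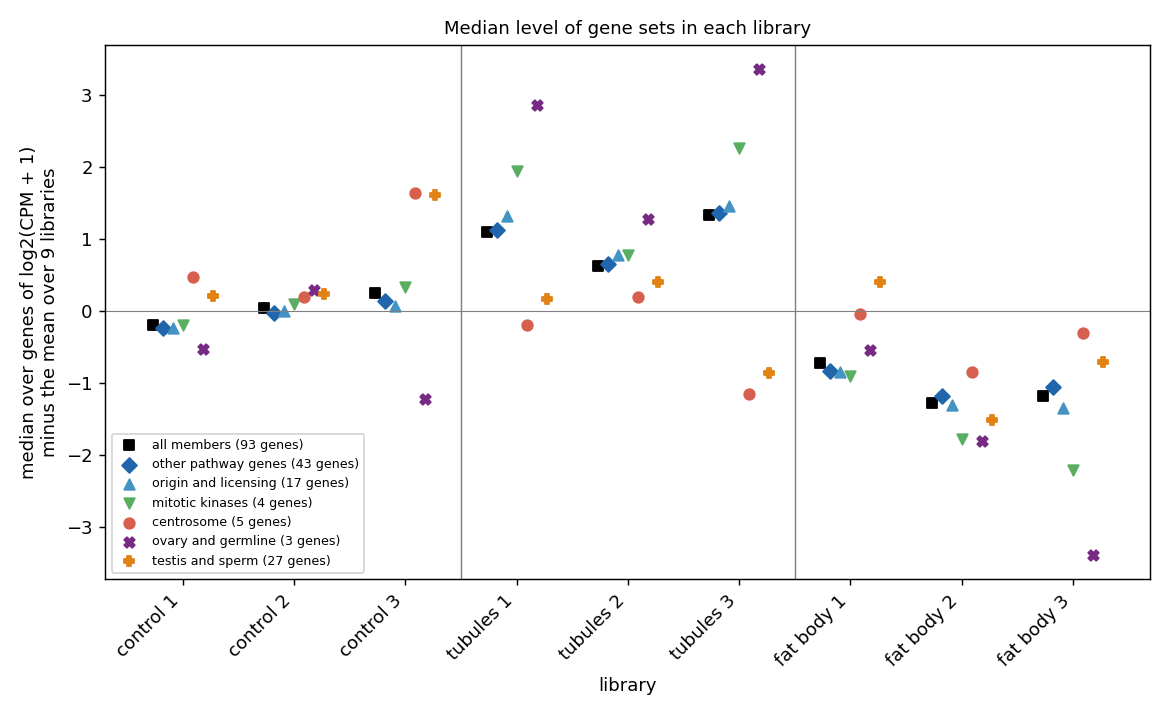
Median over genes of log2(CPM + 1) minus each gene's mean over the 9 libraries, for all members, other pathway genes, 3 role groups and 2 marker lists, per library. The points of the members and of the ovary and germline markers are lowest among the tubule libraries in replicate 2, and centrosome and testis points are highest in control replicate 3.

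By their sum and their median, though not in every gene, testis markers were highest among the controls in control replicate 3. Among the fat body libraries they were highest by both in fat body replicate 1. Control replicate 3 was at least 1.5 times both other controls in 21 members (22.6%, against 13.8% of all genes), 4 of the 5 centrosome genes among them. Fat body replicate 1 was at least 1.5 times both other fat body libraries in 37 members (39.8%, against 16.8%). The 27 testis and sperm markers summed to 1797 and 1876 CPM in control replicates 1 and 2 and to 3884 in replicate 3, and to 1782 in fat body replicate 1 against 528 and 889.8. Vitellogenin receptor and Bicaudal C were also at their highest in fat body replicate 1 among the fat body libraries. The part of these markers in the results was not tested. Without these 2 libraries, 61 members rose and 6 fell in tubules, 11 rose and 62 fell in fat body, and 11 were higher and 69 lower in fat body over tubules. Counts over all genes in that fit are not reported here, so these numbers have no background of their own. With all libraries, 32.6% of all genes tested rose and 30.2% fell in tubules over control. The shares were 32.2% and 36.9% in fat body over control, and 38.8% and 41% in fat body over tubules.

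The origin and licensing genes moved together. Of 17, 14 rose in tubules and none fell, 14 fell in fat body and none rose, and all 17 were lower in fat body than in tubules, with log2 fold changes from -3.94 to -1.81. Mcm4 (dpa, LOC662486), a subunit of the helicase, stood at 20.3, 25 and 21.7 CPM in controls, 81.3, 40.5 and 99 in tubules and 15.8, 15.3 and 14.3 in fat body. All tubule values were above all controls and all fat body values below them. The log2 fold change was 1.72 ± 0.30, adjusted p = 0.0009, in tubules (± SE, from 3 libraries a group, by edgeR's quasi-likelihood test) and -2.28 ± 0.30, adjusted p = 9.8e-05 for fat body over tubules, while fat body over control did not pass (-0.56 ± 0.29, adjusted p = 0.11). Its fat body contrast passed without tubule replicate 2 (-0.56, adjusted p = 0.0114), and with library totals alone (-0.82, adjusted p = 0.0402).

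Sld5 (LOC662335), a subunit of GINS, had the largest rise of the role in tubules. It stood at 3.82, 5.13 and 2.51 CPM in controls, 22.5, 16.1 and 27.2 in tubules and 2.2, 1.08 and 1.01 in fat body, and the 3 groups did not overlap. Its log2 fold change was 2.52 ± 0.38, adjusted p = 0.000433 in tubules, -1.42 ± 0.40, adjusted p = 0.0122 in fat body and -3.94 ± 0.42, adjusted p = 2.51e-05 for fat body over tubules. Orc1 (LOC663974), the largest subunit of the origin recognition complex in other animals, stood at 11.6, 16.1 and 18.9 CPM in controls, 30.4, 17.8 and 31 in tubules and 4.26, 3.46 and 2.5 in fat body. Tubule replicate 2 lay among the controls. The fall in fat body was -2.19 ± 0.32, adjusted p = 0.000514, whereas the rise in tubules was small (0.76 ± 0.30, adjusted p = 0.0483) and was lost without tubule replicate 1 or 3, fat body replicate 2 or control replicate 1 or 2 (0.59 to 0.79, adjusted p = 0.0606 to 0.152). It was also lost with upper-quartile factors (0.55, adjusted p = 0.115), under the authors' size factors (0.27, adjusted p = 0.385) and with library totals alone (0.55, adjusted p = 0.137). The other 14 genes, Orc2, Orc4, Orc5, Orc6, Cdc6, dup (Cdt1), Mcm3, Mcm5, Mcm6, Mcm7, 2 genes titled Mcm2 and the GINS genes Psf1 and Psf2, had log2 fold changes from 0.43 to 1.70 in tubules and from -1.99 to -0.68 in fat body. Orc4 differed from the others in its tubule libraries, at 43.8, 58.5 and 40.9 CPM, with replicate 2 the highest. These 14 genes are named after their values were seen.

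**Figure D3:**
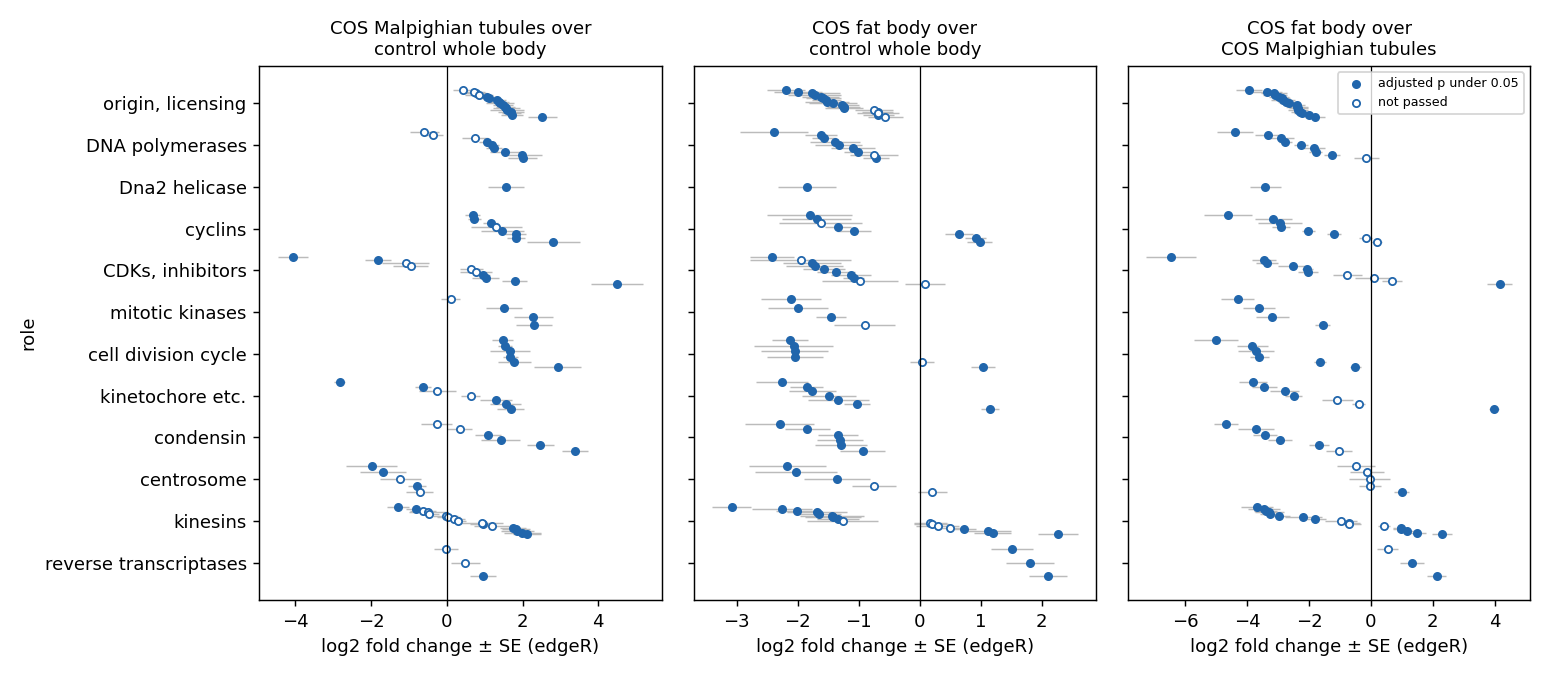
Log2 fold change of each member (points) by role group in the 3 comparisons, with filled points for an adjusted p under 0.05. The 17 origin and licensing genes lie above 0 in tubules over control and below 0 in the other comparisons, while kinesins and CDK genes spread to both sides.

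DNA polymerase genes were higher in tubules and lower in fat body in most cases. Of 9, 6 rose in tubules, 8 fell in fat body and 8 were lower in fat body than in tubules, with none in the opposite direction. The catalytic subunit of DNA polymerase alpha, which starts new strands (PolA1, LOC655855), stood at 9.92, 10.6 and 10.8 CPM in controls, 46.7, 18.7 and 60.3 in tubules and 5.13, 3.86 and 3.44 in fat body. Its groups did not overlap. The log2 fold changes were 2.01 ± 0.38, adjusted p = 0.00161 in tubules, -1.33 ± 0.39, adjusted p = 0.0144 in fat body and -3.34 ± 0.41, adjusted p = 5.97e-05 for fat body over tubules, and the fat body call was lost without fat body replicate 3 (-1.21, adjusted p = 0.0524). PolA1 is the direct neighbour of Mcm7 in the RefSeq annotation, with 0 protein-coding genes between them, and both rose in tubules and fell in fat body. The second subunit of the same polymerase (PolA2, LOC100142430) stood at 5.25, 7.72 and 7.39 CPM in controls, 29.8, 13.9 and 37.7 in tubules and 2.4, 1.02 and 0.473 in fat body. It had the largest fall of the role in fat body (-2.38 ± 0.56, adjusted p = 0.00525) and was -4.38 ± 0.59, adjusted p = 0.000103 for fat body over tubules.

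The subunits of polymerases delta and epsilon, which extend the strands (PolD2, PolE2 and PolE4), and the accessory subunit of the mitochondrial polymerase gamma (PolG2) rose in tubules by 1.06 to 1.53 log2 units and fell in fat body. Polymerase theta (PolQ, LOC657782), an enzyme of break repair, did not pass in tubules (-0.36 ± 0.25, adjusted p = 0.233) and fell in fat body (-1.61 ± 0.26, adjusted p = 0.000874). These 5 genes are named after their values were seen. Dna2 (LOC661398), a helicase and nuclease that trims flaps on the lagging strand, stood at 14.9, 19.6 and 20.8 CPM in controls, 56.6, 26.8 and 79.9 in tubules and 8.6, 3.81 and 2.97 in fat body. It rose in tubules (1.56 ± 0.46, adjusted p = 0.0158) and fell in fat body (-1.85 ± 0.48, adjusted p = 0.00857). The rise was lost without tubule replicate 3 (1.18, adjusted p = 0.0603), without control replicate 1 (1.43, adjusted p = 0.058) and under the authors' size factors (1.06, adjusted p = 0.0514).

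**Figure D4:**
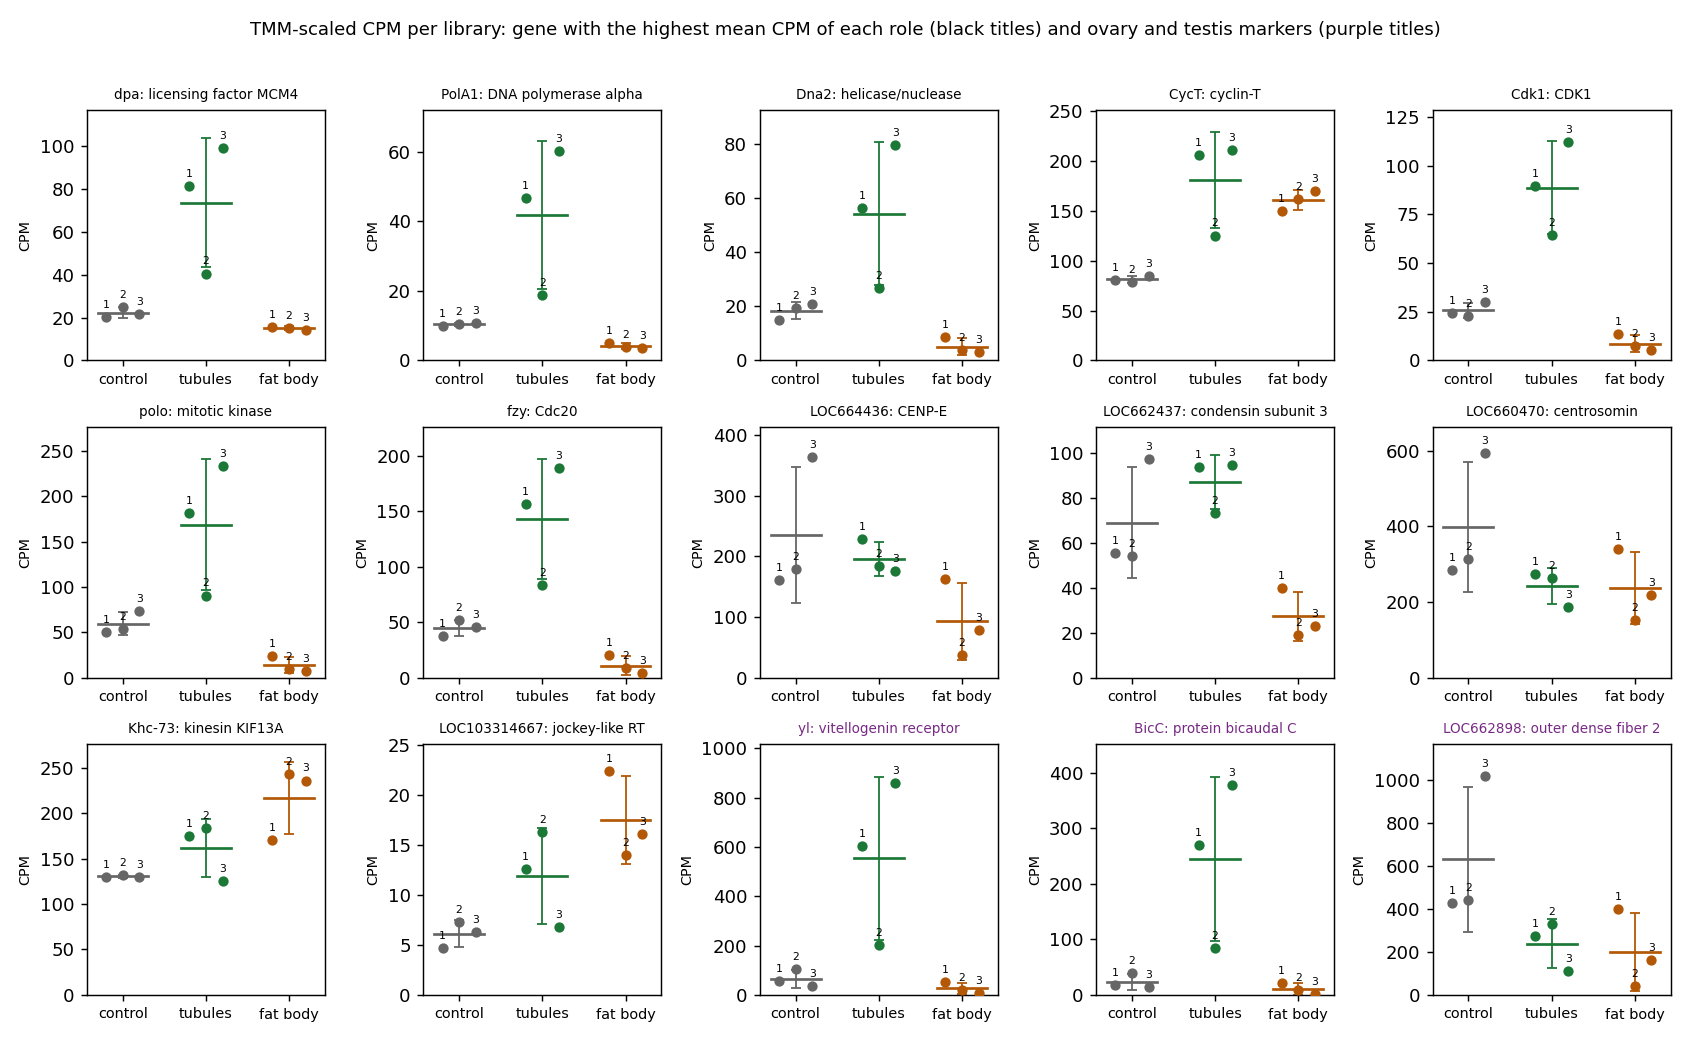
TMM-scaled CPM in each library (points, numbered by replicate) with group mean and SD (n = 3), for the member with the highest mean CPM in each role and for 3 marker genes. Tubule replicate 2 is the lowest tubule library for Mcm4, PolA1, Dna2, Cdk1, polo and fzy as for yl and BicC, and control replicate 3 is the highest control for centrosomin as for outer dense fiber protein 2, a sperm tail protein.

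Among the cyclins, 7 of 8 rose in tubules and none fell, while fat body split: 3 rose and 4 fell. Cyclin-B3 (LOC103312485), a mitotic cyclin, stood at 19.96, 34.6 and 10.8 CPM in controls, 168, 72.4 and 219 in tubules and 10.2, 7.1 and 1.42 in fat body, and the groups did not overlap. The log2 fold change was 2.81 ± 0.71, adjusted p = 0.0069 in tubules and -4.61 ± 0.77, adjusted p = 0.000416 for fat body over tubules. Its fall in fat body (-1.8 ± 0.69, adjusted p = 0.0434) was lost without tubule replicate 1, fat body replicate 2 or 3, or control replicate 1 or 2 (-1.9 to -1.32, adjusted p = 0.0601 to 0.141). This call was also lost under the authors' size factors (-1.67, adjusted p = 0.0527). Cyclin-T (CycT, LOC657976), the partner of the transcription kinase Cdk9, had the opposite sign in fat body. It stood at 80.4, 78.4 and 85.2 CPM in controls, 206, 125 and 211 in tubules and 151, 162 and 170.2 in fat body, and every treated library was above every control. It rose in both organs (1.15 ± 0.20, adjusted p = 0.000999 in tubules and 0.99 ± 0.20, adjusted p = 0.00274 in fat body). Fat body over tubules did not pass (-0.17 ± 0.20, adjusted p = 0.45), changed sign with the authors' size factors (0.50, adjusted p = 0.0389), and passed as lower without tubule replicate 2 (-0.37, adjusted p = 0.0235). The other 2 cyclins that rose in fat body are named after their values were seen. Cyclin-L1 (LOC659021), known from splicing, was at 93.7, 73 and 83.2 CPM in controls, 129, 146 and 139 in tubules and 129.7, 166 and 176 in fat body. Cyclin-D1 (LOC660655), the cyclin of entry into the cycle, was at 8.88, 11.2 and 9.9 CPM in controls, 37.6, 40.04 and 29.2 in tubules and 11.5, 16.2 and 19.1 in fat body. The mitotic cyclins CycA and CycB3 and the CDK-activating cyclin CycH fell in fat body, by 1.08 to 1.69 log2 units.

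The kinases and their regulators were mixed. Of 10 genes, 4 rose and 2 fell in tubules (40% and 20%, against 32.6% and 30.2% of all genes tested). In fat body 7 fell and none rose, and 1 was higher and 6 lower in fat body than in tubules. Cdk1 (LOC656189), the kinase of mitotic entry, stood at 24.2, 22.7 and 30.1 CPM in controls, 89.7, 64.3 and 112 in tubules and 13.4, 7.21 and 5.47 in fat body, without overlap. The log2 fold changes were 1.79 ± 0.34, adjusted p = 0.0016 in tubules, -1.56 ± 0.34, adjusted p = 0.00391 in fat body and -3.35 ± 0.37, adjusted p = 3e-05 between the organs. Cks30A (LOC664555), a small subunit that binds Cdk1 in Drosophila, stood at 27.3, 31.2 and 25.6 CPM in controls, 55.9, 38.9 and 76.1 in tubules and 8.06, 4.49 and 3.17 in fat body. It fell in fat body (-2.42 ± 0.37, adjusted p = 0.000641). Its rise in tubules (1.02 ± 0.35, adjusted p = 0.0279) was lost without any 1 of tubule replicates 1 and 3 and control replicates 1, 2 and 3 (0.76 to 1.11, adjusted p = 0.0549 to 0.102). The call was also lost with upper-quartile factors (0.79, adjusted p = 0.0677), the authors' size factors (0.52, adjusted p = 0.179) or library totals alone (0.79, adjusted p = 0.0754).

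A gene titled probable cyclin-dependent serine/threonine-protein kinase (LOC107398361) had the largest log2 fold changes of the set in tubules over control and in fat body over tubules. It stood at 1.23, 0.759 and 0.815 CPM in controls, 18.4, 17.9 and 27.9 in tubules and 0.0666, 0 and 0.675 in fat body, where the 3 libraries held 11 reads in all. Every tubule library was far above all others. The fitted log2 fold change was 4.51 ± 0.69, adjusted p = 0.000438 in tubules and -6.45 ± 0.80, adjusted p = 6.27e-05 for fat body over tubules, a value that rests on those few reads and depends on how they are fitted. Fat body over control did not pass (-1.94 ± 0.83, adjusted p = 0.0605). The Cdk5 activator (Cdk5alpha, LOC664019), which turns on Cdk5 in neurons, had the opposite signs in these comparisons. It stood at 11.7, 12.8 and 9.96 CPM in controls, 0.569, 1.08 and 0.401 in tubules and 8.46, 15.7 and 12.6 in fat body, with all tubule libraries far under all others. It fell in tubules (-4.07 ± 0.40, adjusted p = 3.6e-05), did not pass in fat body (0.09 ± 0.33, adjusted p = 0.804), and stood higher in fat body than tubules (4.17 ± 0.40, adjusted p = 1.42e-05). A gene titled cyclin-dependent kinase inhibitor 1-like (LOC107397827), a family that holds CDKs inactive, stood at 60.2, 63.3 and 80.1 CPM in controls, 24, 23.9 and 9.63 in tubules and 36.9, 28.7 and 27.6 in fat body. Every treated library was below every control, and it fell in tubules (-1.82 ± 0.34, adjusted p = 0.00132) and in fat body (-1.13 ± 0.33, adjusted p = 0.0144). The fat body call was lost without fat body replicate 3 (-1.05, adjusted p = 0.051).

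The mitotic kinase group holds 4 genes, of which 3 rose in tubules, 3 fell in fat body and all 4 were lower in fat body than in tubules. The gene titled aurora kinase C (aurB, LOC103314617), which RefSeq names aurB after the Drosophila kinase of the chromosomal passenger complex, stood at 12.4, 17.9 and 18 CPM in controls, 75.8, 52.9 and 109 in tubules and 7.53, 2.73 and 1.89 in fat body. Its groups did not overlap, with 2.3 ± 0.48, adjusted p = 0.00273 in tubules, -1.99 ± 0.49, adjusted p = 0.00694 in fat body and -4.29 ± 0.54, adjusted p = 6.59e-05 between the organs. Polo (LOC660822), the kinase of spindle assembly and exit from mitosis, stood at 50.7, 53.7 and 74 CPM in controls, 182, 90.7 and 234 in tubules and 24.3, 9.37 and 7.76 in fat body. It fell in fat body (-2.11 ± 0.49, adjusted p = 0.00495), and its rise in tubules (1.51 ± 0.47, adjusted p = 0.0204) was lost without tubule replicate 1 or 3 or control replicate 1 or 2 (1.2 to 1.45, adjusted p = 0.0507 to 0.0724). This call was also lost under the authors' size factors (1.01, adjusted p = 0.0628). Aurora borealis (bora, LOC100142254), which activates aurora A in Drosophila, stood at 6.8, 9.43 and 10.7 CPM in controls, 50.7, 18.7 and 61.9 in tubules and 7.73, 4.26 and 2.43 in fat body. It rose in tubules (2.28 ± 0.51, adjusted p = 0.00379), while its fat body contrast did not pass (-0.9 ± 0.51, adjusted p = 0.134) except without fat body replicate 1 (-1.41, adjusted p = 0.0378). Aurora A itself (Aurka), the kinase of the centrosomes, stood at 13.6, 15.4 and 24.9 CPM in controls, 18.5, 21.6 and 18 in tubules and 7.0, 5.91 and 6.82 in fat body, so the tubule values lay within the controls. The tubule contrast did not pass (0.1 ± 0.24, adjusted p = 0.72), with a sign that changed under 3 of the scalings and on leaving out control replicate 1 (to -0.066, adjusted p = 0.833) or control replicate 2 (to -0.0016, adjusted p = 0.997), and the gene fell in fat body (-1.45 ± 0.25, adjusted p = 0.00122).

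All 6 genes of the cell division cycle role rose in tubules and all 6 were lower in fat body than in tubules, and 1 rose and 4 fell in fat body. Cdc6 (LOC100141992), titled cell division control protein 6 homolog, is counted with origin and licensing. Its tubule contrast did not pass (0.72 ± 0.28, adjusted p = 0.05004). The Cdc20 gene fizzy (fzy, LOC658108), the activator of the anaphase-promoting complex, stood at 37.4, 52 and 45.3 CPM in controls, 157, 83.6 and 189 in tubules and 20.3, 8.41 and 3.85 in fat body. It fell in fat body (-2.05 ± 0.54, adjusted p = 0.00953), and its rise in tubules (1.67 ± 0.53, adjusted p = 0.0214) was lost without tubule replicate 1 or 3 or control replicate 1 (1.42 to 1.6, adjusted p = 0.0529 to 0.0707). This call was also lost under the authors' size factors (1.17, adjusted p = 0.0612). A second gene titled Cdc20 (LOC659043) stood at 6.55, 11.4 and 3.32 CPM in controls, 58.1, 31.4 and 72.5 in tubules and 3.07, 1.53 and 0.473 in fat body. It rose in tubules (2.93 ± 0.62, adjusted p = 0.00292), and its fall in fat body (-2.06 ± 0.65, adjusted p = 0.0196) was lost without fat body replicate 2 (-1.99, adjusted p = 0.0534) or control replicate 2 (-1.56, adjusted p = 0.0695). Cell division cycle-associated protein 3 (LOC656350), a trigger of mitotic entry in vertebrates, stood at 14.1, 14.9 and 21.6 CPM in controls, 60.01, 38.6 and 76 in tubules and 7.4, 2.5 and 2.43 in fat body, and was -3.83 ± 0.49, adjusted p = 7.87e-05 between the organs. A gene titled cell division control protein 42 (LOC659479), a small GTPase of cell polarity, was the 1 member of the role that rose in fat body. It stood at 14.3, 18.5 and 15.4 CPM in controls, 44.7, 39.2 and 55.9 in tubules and 37.1, 31.5 and 30.5 in fat body, with every treated library above every control (1.54 ± 0.19, adjusted p = 0.000153 in tubules and 1.04 ± 0.19, adjusted p = 0.00163 in fat body). Its lower level in fat body than in tubules (-0.49 ± 0.19, adjusted p = 0.0364) was lost without tubule replicate 1 or 3, fat body replicate 2 or 3, or control replicate 3 (-0.53 to -0.34, adjusted p = 0.0583 to 0.128). It was also lost with RLE factors (-0.36, adjusted p = 0.175) or upper-quartile factors (-0.40, adjusted p = 0.0875), and by DESeq2 (-0.37, adjusted p = 0.185). Its sign changed with the authors' size factors. Another gene with that title (LOC103314925), named after its values were seen, fell in fat body (-2.12 ± 0.30, adjusted p = 0.00046). It stood at 9.98, 8.48 and 6.14 CPM in controls, 18.6, 29.6 and 20.4 in tubules and 1.8, 2.33 and 1.49 in fat body. In tubules it rose (1.48 ± 0.28, adjusted p = 0.0015).

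At the kinetochore and centromere, 3 of 7 genes rose and 2 fell in tubules (42.9% and 28.6%, against 32.6% and 30.2% of all genes tested). In fat body 1 rose and 6 fell (14.3% and 85.7%, against 32.2% and 36.9%). Ndc80 (LOC103314387), which holds microtubules at the kinetochore, stood at 20.7, 21.3 and 29.3 CPM in controls, 72.7, 46.3 and 90.8 in tubules and 8.53, 3.58 and 2.9 in fat body, without overlap. It rose in tubules (1.56 ± 0.41, adjusted p = 0.00864) and fell in fat body (-2.25 ± 0.43, adjusted p = 0.00187). The spindle checkpoint gene mad2 also rose in tubules and fell in fat body. So did the centriole gene Sas-4, which is in this role by its title, centromere protein J. Both are named after their values were seen. A gene titled centromere-associated protein E (LOC657022) had the opposite pattern to the set. It stood at 149, 153 and 149 CPM in controls, 23.8, 19.3 and 20.1 in tubules and 324, 305 and 372 in fat body, and no library of any group overlapped with another group. The log2 fold change was -2.83 ± 0.15, adjusted p = 2.88e-06 in tubules, 1.15 ± 0.14, adjusted p = 0.000257 in fat body and 3.98 ± 0.16, adjusted p = 2.28e-07 for fat body over tubules. Centromere-associated protein E is known in vertebrates as a kinetochore motor, and 3 genes here share the title. Another of them (LOC664436) stood at 161, 179 and 364 CPM in controls, 228, 184 and 176 in tubules and 162, 37.9 and 79.3 in fat body, with control replicate 3 and fat body replicate 1 the highest of their groups. It fell in fat body (-1.33 ± 0.50, adjusted p = 0.0384), a call that was lost without any 1 of the tubule libraries, fat body replicates 2 and 3 and control replicate 3 (-1.33 to -0.87, adjusted p = 0.0506 to 0.121). Fat body over tubules passed as lower without fat body replicate 1 (-1.74, adjusted p = 0.0057) or control replicate 3 (-1.1, adjusted p = 0.0338).

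Condensin genes rose in tubules in 4 of 6 cases and fell in fat body in 6 of 6. A gene titled condensin complex subunit 2-like (LOC103314774) stood at 1.36, 2.34 and 1.07 CPM in controls, 13.8, 15.4 and 20.9 in tubules and 0.733, 0.454 and 0.743 in fat body. The tubule libraries were far above all others (3.39 ± 0.36, adjusted p = 5.47e-05), and the gene was -4.69 ± 0.39, adjusted p = 6.68e-06 between the organs. Its fall in fat body (-1.3 ± 0.38, adjusted p = 0.0148) was lost without fat body replicate 2 (-1.1, adjusted p = 0.0549) or control replicate 2 (-0.94, adjusted p = 0.0538). A second subunit 2 gene (LOC654890) stood at 7.06, 8.16 and 4.14 CPM in controls, 39.4, 24.1 and 44.1 in tubules and 4.73, 2.5 and 2.9 in fat body, and rose in tubules (2.47 ± 0.36, adjusted p = 0.000361). Its fall in fat body (-0.94 ± 0.36, adjusted p = 0.0442) was lost without tubule replicate 1, fat body replicate 2 or 3, or control replicate 1 or 2 (-0.94 to -0.75, adjusted p = 0.0599 to 0.131). It was also lost with RLE factors (-0.77, adjusted p = 0.0776), the authors' size factors (-0.79, adjusted p = 0.074) or by DESeq2 (-0.78, adjusted p = 0.0698). Another (LOC655301) stood at 5.38, 8.54 and 11 CPM in controls, 24.9, 8.95 and 32.8 in tubules and 2.2, 2.1 and 0.743 in fat body, where it fell (-2.29 ± 0.56, adjusted p = 0.00656). Its rise in tubules (1.42 ± 0.52, adjusted p = 0.0384) was lost without tubule replicate 1 or 3 or control replicate 1 or 2 (1.03 to 1.44, adjusted p = 0.0901 to 0.138). The call was also lost with upper-quartile factors (1.21, adjusted p = 0.0587), the authors' size factors (0.93, adjusted p = 0.117) or library totals alone (1.21, adjusted p = 0.0679). The remaining subunit 2 gene (LOC103312317), named after its values were seen, did not pass in tubules (-0.27 ± 0.42, adjusted p = 0.583). It stood at 42.8, 36.2 and 92.1 CPM in controls, 51.3, 51.8 and 38.8 in tubules and 36.8, 15.1 and 18.3 in fat body. In fat body it fell (-1.29 ± 0.43, adjusted p = 0.0248). Condensin complex subunit 3 (LOC662437) stood at 55.7, 54 and 97.5 CPM in controls, 93.8, 73.4 and 94.6 in tubules and 39.8, 19 and 23 in fat body, with control replicate 3 above both other controls. It fell in fat body (-1.34 ± 0.33, adjusted p = 0.00663) and did not pass in tubules (0.34 ± 0.32, adjusted p = 0.373). The tubule contrast passed as higher without control replicate 3 and fat body replicate 1 together (0.66, adjusted p = 0.0216). Under the authors' size factors it had the opposite sign (-0.14, adjusted p = 0.666). No title with cohesin was among the members.

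Among the 5 genes with a centrosome title none rose in tubules and 3 fell, and 3 fell in fat body. Control replicate 3 was at least 1.5 times both other controls in 4 of the 5. The summed testis and sperm markers given above were also highest there among the controls. The centriole gene Sas-4 (LOC663073), counted with the kinetochore and centromere by its title, is not among the 5. It rose in tubules (1.30 ± 0.43, adjusted p = 0.024). Centrosomin (LOC660470), a scaffold of the centrosome, stood at 285, 312 and 595 CPM in controls, 275, 263 and 187 in tubules and 339, 152 and 219.7 in fat body. Control replicate 3 was the highest library, and neither tubules (-0.72 ± 0.36, adjusted p = 0.108) nor fat body (-0.75 ± 0.36, adjusted p = 0.0885) passed against the control. The tubule contrast passed as lower with upper-quartile factors (-0.91, adjusted p = 0.0352), the authors' size factors (-1.19, adjusted p = 0.0112) and library totals alone (-0.94, adjusted p = 0.0353). The fat body contrast passed without fat body replicate 1 (-1.1, adjusted p = 0.0237), with upper-quartile factors (-0.86, adjusted p = 0.0406) and with library totals alone (-1.0, adjusted p = 0.0272). A pair of neighbouring genes titled centrosomal protein of 131 kDa, known from cilia, moved alike. The first (LOC103312108) stood at 7.52, 4.62 and 12.7 CPM in controls, 3.0, 3.9 and 0.803 in tubules and 2.53, 0.852 and 2.16 in fat body, and the second (LOC661736) at 12.2, 16.8 and 35.6 in controls, 5.53, 9.31 and 1.47 in tubules and 7.46, 2.61 and 5.81 in fat body. Control replicate 3 and tubule replicate 3 were at the ends for both. They fell in tubules (-1.69 ± 0.61, adjusted p = 0.0367, and -1.99 ± 0.67, adjusted p = 0.0268) and in fat body (-2.17 ± 0.63, adjusted p = 0.0138, and -2.03 ± 0.67, adjusted p = 0.0239). Without control replicate 3 the tubule calls were lost (-1.22, adjusted p = 0.121, and -1.41, adjusted p = 0.091), as was the fat body call of the second (-1.44, adjusted p = 0.0823). Both tubule calls were also lost without tubule replicate 1 (-1.82, adjusted p = 0.07, and -2.0, adjusted p = 0.0696) or 3 (-1.26, adjusted p = 0.0796, and -1.54, adjusted p = 0.0519), that of the first without control replicate 1 (-1.75, adjusted p = 0.0634), and the fat body call of the second without fat body replicate 2 (-1.7, adjusted p = 0.0685) or 3 (-2.1, adjusted p = 0.0592). Centrosomal protein of 104 kDa (LOC662343), a protein of the ciliary tip, stood at 6.03, 5.06 and 6.77 CPM in controls, 3.72, 3.39 and 3.21 in tubules and 5.13, 8.01 and 7.49 in fat body, and stood higher in fat body than tubules (1.0 ± 0.25, adjusted p = 0.00443). Its fall in tubules (-0.79 ± 0.25, adjusted p = 0.0197) was lost without tubule replicate 3 or control replicate 1 or 3 (-0.78 to -0.66, adjusted p = 0.0522 to 0.107). It was also lost with RLE factors (-0.76, adjusted p = 0.0545).

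Kinesins, motors that walk along microtubules, were mixed. Of 17, 6 rose and 2 fell in tubules (35.3% and 11.8%, against 32.6% and 30.2% of all genes tested). In fat body 4 rose and 8 fell (23.5% and 47.1%, against 32.2% and 36.9%). Between the organs, 5 were higher and 8 lower in fat body than in tubules (29.4% and 47.1%, against 38.8% and 41%). Among the spindle motors, Nod (nod, LOC656086), which moves chromosomes in the Drosophila oocyte, stood at 16.1, 16.1 and 29.5 CPM in controls, 52.3, 28.6 and 59.3 in tubules and 7.53, 2.27 and 3.11 in fat body. It fell in fat body (-2.26 ± 0.49, adjusted p = 0.0037). The bipolar kinesin KRP-130 (LOC656336), a motor that pushes spindle poles apart, stood at 27.8, 30.4 and 47.9 CPM in controls, 48.3, 31.4 and 41.2 in tubules and 4.4, 5.28 and 2.84 in fat body. Tubules overlapped with controls (0.19 ± 0.29, adjusted p = 0.585), and its fall in fat body was the largest of the set (-3.08 ± 0.32, adjusted p = 0.000127). The 3 genes titled KIF11-B, of the same family, rose in tubules by 0.95 to 1.86 log2 units and fell in fat body by 1.42 to 2.01, as did subito (sub, LOC657649), with 1.99 and -1.68. These 4 are named after their values were seen.

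Other kinesins are known for transport along axons, in vesicles or in cilia. Unc-104 (unc-104, LOC662651), which carries synaptic vesicle precursors, stood at 156, 159 and 149.9 CPM in controls, 69.8, 38.4 and 81.6 in tubules and 127, 219.8 and 186 in fat body. All tubule libraries were below all others, with -1.29 ± 0.29, adjusted p = 0.00393 in tubules and 1.49 ± 0.29, adjusted p = 0.00116 for fat body over tubules. KIF19 (Kif19A, LOC663478), a motor of cilia in mammals, stood at 1.81, 2.66 and 1.5 CPM in controls, 2.07, 1.23 and 2.54 in tubules and 8.86, 9.71 and 10.3 in fat body, where it rose (2.27 ± 0.33, adjusted p = 0.000499). A kinesin-II subunit (LOC103313138), of the motor that builds cilia, stood at 4.15, 3.67 and 4.07 CPM in controls, 5.01, 2.24 and 4.95 in tubules and 8.93, 8.69 and 9.72 in fat body, and also rose there (1.2 ± 0.31, adjusted p = 0.00776). KIF13A (Khc-73, LOC661047), a vesicle motor, stood at 130.1, 132 and 129 CPM in controls, 175, 184 and 125 in tubules and 171, 243 and 236 in fat body, with all fat body libraries above all controls (0.73 ± 0.19, adjusted p = 0.00943), a call lost with library totals alone (0.47, adjusted p = 0.0525). Fat body over tubules (0.42 ± 0.19, adjusted p = 0.069) did not pass, but passed as higher when tubule replicate 2 was left out (0.53, adjusted p = 0.0466), when fat body replicate 1 was (0.57, adjusted p = 0.0188). It also passed with RLE factors (0.62, adjusted p = 0.0297), upper-quartile factors (0.52, adjusted p = 0.0488) and under the authors' size factors (1.08, adjusted p = 0.00118), and by DESeq2 (0.62, adjusted p = 0.0262). KIF21A (Klp31E, LOC661825), known from axons in mammals, stood at 25.3, 35.6 and 21 CPM in controls, 106, 45.5 and 139 in tubules and 55.8, 66.3 and 56.6 in fat body. It rose in tubules (1.82 ± 0.38, adjusted p = 0.00252), and its rise in fat body (1.12 ± 0.37, adjusted p = 0.0244) was lost without fat body replicate 2 or control replicate 1 or 3 (1.02 to 1.07, adjusted p = 0.0604 to 0.0742). It was also lost with library totals alone (0.86, adjusted p = 0.0734). A gene titled kinesin-like protein CG14535 (LOC660983) stood at 7.52, 8.04 and 10.2 CPM in controls, 6.0, 5.41 and 3.28 in tubules and 8.0, 10.7 and 10.4 in fat body, and stood higher in fat body than tubules (0.98 ± 0.27, adjusted p = 0.00866). Its fall in tubules (-0.8 ± 0.27, adjusted p = 0.0289) was lost without tubule replicate 3 or control replicate 2 or 3 (-0.86 to -0.58, adjusted p = 0.0521 to 0.13). The summed muscle markers were higher in the fat body libraries than in the others, as given above, and their part in these values was not tested.

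The 3 reverse transcriptases of mobile elements match the text rule only through the words DNA polymerase and serve the spread of transposons, not replication. All 3 rose in fat body and none fell in any comparison. A jockey-like gene (LOC103314667) stood at 4.67, 7.34 and 6.33 CPM in controls, 12.6, 16.3 and 6.82 in tubules and 22.5, 14 and 16.1 in fat body (1.52 ± 0.35, adjusted p = 0.00484). Its rise in tubules (0.96 ± 0.35, adjusted p = 0.0359) was lost without tubule replicate 1 or 2 or control replicate 1 or 3 (0.67 to 1.01, adjusted p = 0.0566 to 0.126). The call was also lost with upper-quartile factors (0.75, adjusted p = 0.083), the authors' size factors (0.48, adjusted p = 0.229) or library totals alone (0.72, adjusted p = 0.0829). A second (LOC107399156) stood at 3.76, 2.85 and 2.07 CPM in controls, 3.46, 3.1 and 1.94 in tubules and 12.9, 10.6 and 14 in fat body (2.11 ± 0.31, adjusted p = 0.000554). The X-element gene (LOC662692) stood at 3.89, 2.85 and 6.52 CPM in controls, 9.05, 4.54 and 4.88 in tubules and 13.1, 13.9 and 19.6 in fat body (1.81 ± 0.39, adjusted p = 0.00339). For both of these, tubules overlapped with the controls and fat body lay wholly above.

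A list of 43 other pathway genes, outside the text rule, moved mostly in the same directions as the members. It holds replication clamp and clamp loader genes, primases, nucleotide synthesis enzymes, checkpoint genes, anaphase-promoting complex subunits and regulators of entry into the cycle. In tubules over control 27 rose and 1 fell (62.8% and 2.33%, against 32.6% and 30.2% of all genes tested). In fat body over control none rose and 37 fell (0% and 86%, against 32.2% and 36.9%). In fat body over tubules 1 was higher and 41 lower (2.33% and 95.3%, against 38.8% and 41%). The medians were 1.10, -1.22 and -2.25 log2 units in that order. As textbook examples named after their values were seen, the replication clamp (PCNA, LOC664086) stood at 39.4, 45.4 and 41.3 CPM in controls, 109.7, 95.8 and 145 in tubules and 29.9, 23.8 and 24 in fat body, and the Cdk1-inhibiting kinase Myt1 (LOC659898) at 20.5, 24.7 and 14.5 in controls, 131, 74.1 and 177 in tubules and 16.3, 17 and 14.2 in fat body. PCNA rose in tubules (1.47 ± 0.19, adjusted p = 0.000193) and fell in fat body (-0.7 ± 0.19, adjusted p = 0.0112). Myt1 rose in tubules (2.68 ± 0.33, adjusted p = 0.000137) and did not pass in fat body (-0.33 ± 0.32, adjusted p = 0.359). The exception in tubules was 1 of the 2 genes titled thymidylate synthase (LOC657759), with 27.4, 39 and 37.2 CPM in controls, 11.1, 12.3 and 15.5 in tubules and 23.2, 21.4 and 16.3 in fat body (-1.41 ± 0.23, adjusted p = 0.000569 in tubules). Several titles, among them KIF11-B, condensin complex subunits 2 and 3, cyclin-A, cyclin-B3, Cdc20, Mcm2 and centromere-associated protein E, belong to more than 1 gene, and the split of reads between close copies is uncertain.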

How the data were processed

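Per the labels' protocols, total RNA was prepared with TRIzol, DNase I removed DNA, and the alignment used assembly Tcas5.2. Trimmomatic 0.32 is named in the submitters' processing notes, while neither aligner nor read counter is given in the sources used here. Per the file headers, the authors deposited an expected count per gene and library, all of them whole numbers, a normalized signal made with DESeq, FPKM, TPM and a log2 fold change of the authors' own per comparison. TPM was not used. FPKM and the normalized signal served only to recover library totals and the authors' size factors. The deposited gene length is within 10% of the RefSeq gene span, introns included, for 74.8% of matched genes, so FPKM is per genomic span, and levels are not compared between genes.

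The rounded counts entered the quasi-likelihood F test of edgeR 4.0.16 (R 4.3.3), after filterByExpr and TMM scaling on the listed genes, with recovered totals as library sizes and 1 fit of all 9 libraries without covariates. The threshold was 0.05 for p adjusted by Benjamini-Hochberg over 5358 genes, after 109 were filtered out. The test was also run on simulated data in which a small part of the genes rose and no others changed. Far more genes were called in the real data, in both directions, so that run cannot show the error rate here. Levels are TMM-scaled CPM, and the SE of a log2 fold change is its size over the square root of F, which is approximate. Of the 93 members, 86 matched the RefSeq table of assembly icTriCast1.1, used for names and neighbours only. Roles follow title patterns, with 6 members moved on their titles. Named members are the one with the highest mean CPM per role, all in roles of 4 or fewer, and the 8 highest and 8 lowest log2 fold changes that passed per comparison. The members, roles and lists were chosen with earlier results of these data known. Alternatives were 4 other scalings, no filter, DESeq2 1.42.0, a replicate block and left-out libraries. Libraries of a group differed by a chi-square of at least 20.9 per degree of freedom, so none counted as a duplicate. Unused columns of single samples numbered 0.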

Additional observations from a re-analysis of the deposited data

How the results depend on the processing

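Across the alternatives, 2088 values were recomputed for the members named by rule, in the comparisons where they passed or were named for their role, of which 1899 kept direction and side of the threshold, 139 lost their call, 27 gained one and 23 changed sign. The 55 members that rose in tubules numbered 25 with tubule replicate 2 as the lone tubule library and 43 to 61 when each library was left out in turn. The 9 that fell there numbered 14 with upper-quartile factors, 17 with the authors' size factors, 14 with library totals alone and 4 with tubule replicate 2 alone, and 4 to 10 when each library was left out (4 without control replicate 3 and 5 without tubule replicate 3). With the authors' size factors 40 members rose in tubules, so that 70.2% of the called members were higher against 85.9%, and the median of all genes shifted by -0.49 in tubules, 0.16 in fat body and 0.65 in fat body over tubules. Of all genes called, 34.2% were then higher in tubules against 51.9%. The share of called members that were higher in tubules was 77.4% with upper-quartile factors and 77.0% with library totals alone, which also took the share of all genes called higher in fat body from 46.6% to 36.0%. The median log2 fold change in tubules of 1.10 became 0.61 with the authors' size factors and 0.67 with tubule replicate 2 alone, and ran from 0.98 to 1.28 with each library left out. That of fat body over tubules of -2.34 became -1.68 and -1.87 in those fits, with -2.47 to -2.18 for left-out libraries. With each library left out, 1551 to 1823 of all genes rose and 1429 to 1760 fell in tubules over control (1747 and 1619 with all libraries). In fat body over control 1488 to 1806 of all genes rose and 1516 to 2139 fell, and in fat body over tubules 1902 to 2090 and 2127 to 2443. The member counts in fat body over control then ran from 10 to 12 that rose and 49 to 67 that fell, and in fat body over tubules from 10 to 11 and 64 to 68. Over the 4 scalings they ran from 9 to 13 and 58 to 72, and from 10 to 15 and 63 to 66, and with tubule replicate 2 alone fat body over tubules had 8 and 63.

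Over all 93 members in tubules over control, 1 changed sign with RLE factors, 3 each with upper-quartile factors and library totals alone, and 6 with the authors' size factors. For fat body over control, 2 did with upper-quartile factors and 5 with library totals alone. For fat body over tubules, 4 did with RLE factors, 2 with upper-quartile factors and 8 with the authors' size factors. The other scalings changed no sign in those 2 comparisons. Of these only LOC659479 had passed the test in that comparison. For the members named by rule, in tubules over control, Aurka went to -0.096 with upper-quartile factors, -0.37 with the authors' size factors and -0.12 with library totals alone, and from -0.066 to 0.43 with libraries left out. LOC107399156 went to 0.13 with tubule replicate 2 alone and from -0.20 to 0.21 with libraries left out, LOC661047 to -0.18 and LOC662437 to -0.14 with the authors' size factors. LOC664436 went to 0.20 without control replicate 3 and fat body replicate 1 together and from -0.47 to 0.23 with single libraries left out. In fat body over tubules, LOC657976 went to 0.50 with the authors' size factors and 0.41 with tubule replicate 2 alone, and LOC659479 to 0.16 with the authors' size factors. LOC660470 went to 0.11 with RLE factors, 0.048 with upper-quartile factors, 0.61 with the authors' size factors and 0.10 with DESeq2, and from -0.38 to 0.22 with libraries left out. The cause of these changes was not tested.

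Replicate numbers gave no sign of pairing the libraries. Deviations of same-numbered libraries correlated from -0.46 to 0.39, and those of differently numbered libraries from -0.55 to 0.46. A shared batch was not tested. With a replicate block, 51 members rose and 6 fell in tubules, 10 rose and 62 fell in fat body, and 10 were higher and 65 lower in fat body over tubules. Counts over all genes with the block are not reported here, so these numbers have no background of their own. Without the block, the shares of all genes tested were 32.6% and 30.2%, 32.2% and 36.9%, and 38.8% and 41% in the same order. Members with few reads, such as LOC107398361 in fat body with 11, have the least certain fold changes.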
